A study of Mus musculus with 16 samples.

Results

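The Slc25a genes encode the mitochondrial carriers, the family of membrane proteins that exchange metabolites across the inner mitochondrial membrane. Every protein-coding gene whose symbol starts with Slc25a and a number was taken, except Slc25a1, which gave 46 of the 21896 protein-coding genes that RefSeq lists for GRCm38.p6 (mm10). Regions enriched for H3K27ac, the acetylated form of histone H3 at lysine 27 that marks promoters and enhancers in use, were given to a carrier when their midpoint lay inside it, or when they lay in no gene and it was the nearest protein-coding gene within 50 kb. In this way 39 carriers received 241 of the 52645 deposited regions, 157 inside the gene and 84 outside it. The other 7 carriers, Slc25a2, Slc25a4, Slc25a18, Slc25a27, Slc25a31, Slc25a35 and Slc25a54, had no region. All 39 carriers with a region passed the filter on low counts and were tested.

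The mark was profiled in mouse liver by chromatin immunoprecipitation and sequencing in 4 groups of 3 libraries. Both genotypes, wild type (WT) and NCoR1 KO, carry the strain label C57BL/6J, and NCoR1 is a corepressor that nuclear receptors recruit with histone deacetylases. From 6 weeks of age and for 3 weeks the mice ate chow or PTU/LID, a low-iodine diet with 0.15% propylthiouracil, an inhibitor of thyroid hormone synthesis, and tissue was taken on day 21. The comparisons ask how H3K27ac differs with the diet in each genotype and with the genotype on each diet. The labels name neither the deleted part of Ncor1 nor the cells in which it is lost, and nothing in them ties a library to an animal of its own, so the p-values rest on how far libraries of a group lie apart, which may be technical. In whole liver, fewer cells of a type and less signal per cell cannot be told apart.

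Mitochondrial carriers mostly swap a substrate against another, so that each links a pathway in the cytosol to one in the matrix. Adenine nucleotide and phosphate carriers feed and drain ATP synthase, dicarboxylate and aspartate carriers move reducing equivalents and carbon for gluconeogenesis, ornithine carriers serve the urea cycle, and the carnitine carrier admits fatty acids for oxidation. Thyroid hormone is a classical regulator of hepatic mitochondrial metabolism, and its receptors bind repeats of the sequence AGGTCA.

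The bases before the listed start of 4 carriers are shown. At or next to the promoters of Slc25a30, Slc25a10 and Slc25a21, H3K27ac differed between groups in the tests described further down. For Slc25a45, the only 1 of the 4 that holds the AGGTCA core, the region called lies 1.2 kb into the gene. That region does not reach the bases shown. They come from RefSeq (GRCm38.p6), run 5′ to 3′ on the gene's own strand, stop before the annotated gene, and have AGGTCA in capitals.
Slc25a30, uncoupling-protein-like carrier, chr14:75787038-75787287, minus strand: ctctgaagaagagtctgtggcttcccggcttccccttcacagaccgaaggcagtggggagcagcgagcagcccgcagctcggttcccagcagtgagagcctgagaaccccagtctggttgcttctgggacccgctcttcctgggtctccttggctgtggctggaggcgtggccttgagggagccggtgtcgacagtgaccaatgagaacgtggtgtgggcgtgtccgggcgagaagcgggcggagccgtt
Slc25a45, carrier related to the carnitine carrier, chr19:5877572-5877800, plus strand: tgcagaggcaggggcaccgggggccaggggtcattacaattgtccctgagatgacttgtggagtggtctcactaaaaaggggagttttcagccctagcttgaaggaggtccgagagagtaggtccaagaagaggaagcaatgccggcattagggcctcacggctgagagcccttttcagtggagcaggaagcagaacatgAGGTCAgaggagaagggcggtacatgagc
Slc25a10, dicarboxylate carrier, chr11:120491587-120491836, plus strand: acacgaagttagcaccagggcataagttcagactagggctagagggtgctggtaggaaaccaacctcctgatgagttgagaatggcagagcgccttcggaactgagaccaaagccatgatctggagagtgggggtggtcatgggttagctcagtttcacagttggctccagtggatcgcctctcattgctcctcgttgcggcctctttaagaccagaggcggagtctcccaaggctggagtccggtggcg
Slc25a21, oxodicarboxylate carrier, chr12:57197473-57197722, minus strand: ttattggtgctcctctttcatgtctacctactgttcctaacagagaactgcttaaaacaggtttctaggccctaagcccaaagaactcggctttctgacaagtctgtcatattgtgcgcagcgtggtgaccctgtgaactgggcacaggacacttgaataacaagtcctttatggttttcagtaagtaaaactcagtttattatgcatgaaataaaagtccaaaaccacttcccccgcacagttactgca
In the Slc25a45 stretch the core lies 50 to 45 bases before the listed start at 5877822, and GC content was 55.9% there, 64.4% for Slc25a30, 56.0% for Slc25a10 and 43.2% for Slc25a21. Of the 46 carriers, 35 have a promoter in the RefSeq table, with 45 windows of 250 bases before to 50 after a start. AGGTCA on either strand was found in 4 of the 45 windows (8.89%), those of Slc25a34, Slc25a39, Slc25a45 and Slc25a47, and in 16.3% of the 32851 promoters of all genes. The direct repeat of the core with a spacer of 4 bases, which thyroid hormone receptors bind and which contains the core at each end, was in no carrier window and in 0.0152% of all. The same repeat with a spacer of 1 base (0.0396% of all), the ERR site TCAAGGTCA (0.423%), both of which also contain the core, and the NRF1 core motif (0.971%) were likewise in no carrier window. The ETS core CCGGAAG was in 7 carrier windows (15.6%), those of Slc25a3, Slc25a4, Slc25a17, Slc25a20, Slc25a25, Slc25a38 and Slc25a54, and in 8.86% of all. These matches describe letters in short windows and do not show binding.

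Total counts ran from 2965505 to 7416187 per library, and the carriers held 0.373 to 0.517% of them. Regions on the mitochondrial chromosome, chrM, held 0.717 to 6.12% of the counts in 11 libraries and 17.2% in Chow_NCoRKO_27ac_146. Of the 12 libraries, 7 had at least 2% of their counts there, including all KO chow libraries, so that below 2% there was no KO chow library to compare. H3K27ac summed over Ncor1 ranged from 41.7 to 60.4 CPM, counts scaled to the same library total, over all libraries and was 0.04 lower on the log2 scale in KO on PTU/LID (SE 0.16); the mark does not show whether the gene product is lost. All 7 hepatocyte markers had regions, with sums of 2369 to 3533 CPM, and of them Ttr rose with the diet in both genotypes. Of markers of other cells, 6 of 7 endothelial genes had regions (Kdr none), with sums of 693 to 729 CPM in WT on chow, 614 to 667 in WT on PTU/LID, 552 to 579.6 in KO on chow and 546 to 560.2 in KO on PTU/LID, and 3 of the 6, Ehd3, Eng and Pecam1, were lower in KO on chow. With the diet, Ehd3 and Pecam1 fell in WT and Tek in KO, and none of the 6 was called between genotypes on PTU/LID. Of 8 Kupffer cell genes, 4 had regions (Clec4f, Adgre1, Marco and Vsig4 none), with sums of 48.1 to 66.4 CPM in WT on chow and 32.8 to 46.0 in the other groups, and Spi1 fell with the diet in WT and was lower in KO on chow. For stellate cells 2 of 6 genes had regions (49.3 to 50.7 CPM in WT on chow, 31.6 to 46.2 elsewhere), of which Hgf was lower in KO on chow. Sox9, the 1 of 4 cholangiocyte genes with a region, rose with the diet in WT, from 29.0 to 39.0 CPM on chow to 38.4 to 57.2 on PTU/LID, and read 34.7 to 47.0 in KO. Of 4 T and B cell genes, Cd4 and Ptprc had regions, with sums of 92.9 to 95.6 CPM in WT on chow, 47.7 to 63.8 in WT on PTU/LID, 99.1 to 134.6 in KO on chow and 69.3 to 70.4 in KO on PTU/LID. Cd4 fell with the diet in WT (-1.02, adjusted p = 0.000826) and KO (-1.04, adjusted p = 0.000137) and was higher in KO on chow (0.57, adjusted p = 0.0457). These are the directions in which Slc25a30 was called. Ptprc went the other way in KO on chow (-0.68, adjusted p = 0.0428). With the diet Ptprc was not called, at -0.32 in WT (adjusted p = 0.336) and 0.30 in KO (adjusted p = 0.409). Sums of 3 of 4 erythroid genes were 16.2 to 27.3 CPM with none called. The part of such cells in the differences below was not tested.

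With CPM taken per TMM-adjusted sum over genes, the carriers differed widely in their sums and in their numbers of regions. Slc25a13, the aspartate-glutamate carrier of liver called citrin, had the highest sum with 22 regions, followed by Slc25a15, the ornithine carrier of the urea cycle, with 12. The median carrier had 4 regions, and 8 carriers had 1. Per kb of region, averaged over the 12 libraries, the level was highest at Slc25a34 (38.9 CPM per kb), Slc25a39, a glutathione carrier (37.2), and Slc25a3, the phosphate carrier (36.6). Level and calls went together: the 11 carriers that passed the test in any comparison had a median of 9 regions and 134 CPM, the other 28 a median of 2.5 regions and 37.9 CPM, and all genes tested a median of 2 regions and 35.5 CPM.

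**Figure D1:**
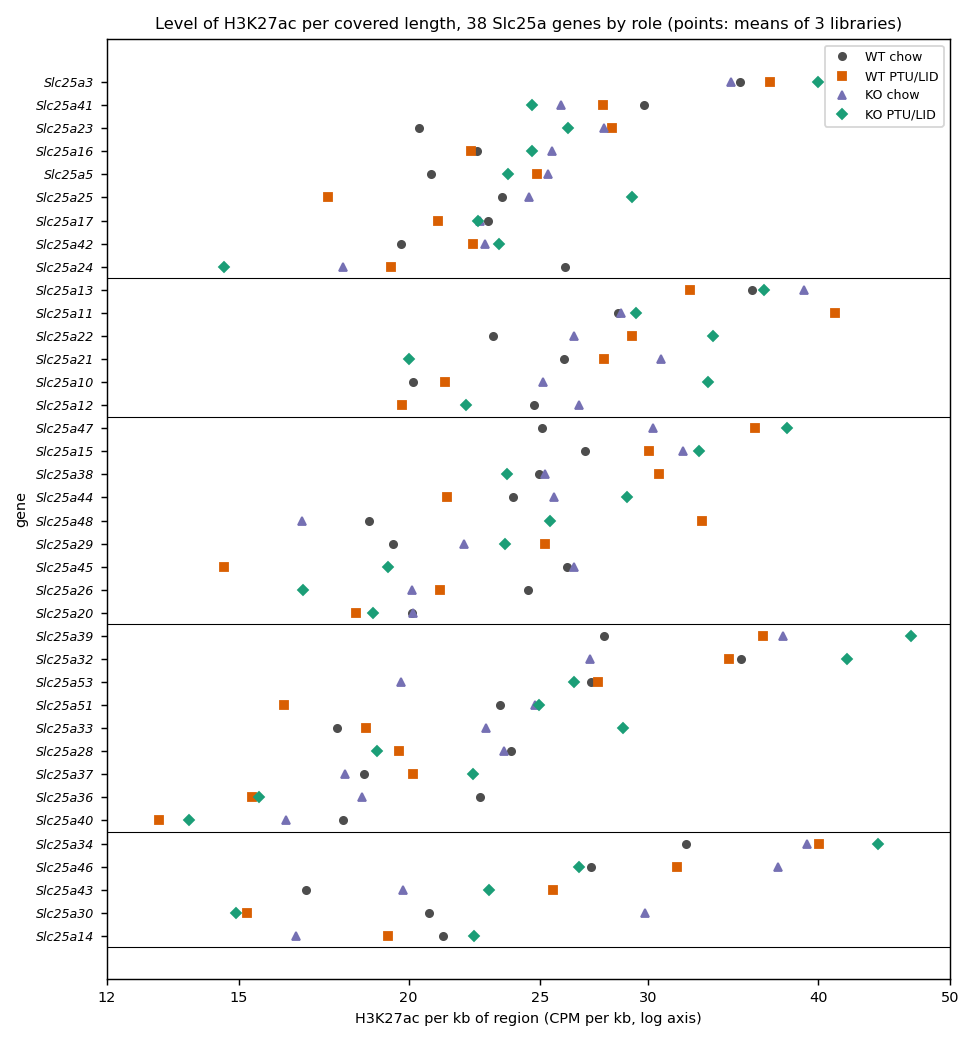
H3K27ac level of 38 of the 39 carriers as CPM per kb of region (log axis), 1 point per group of 3 libraries, ordered within roles by the mean over all libraries. Slc25a34 is at the top of its role group with 38.9 CPM per kb on average.

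In WT, 6 carriers differed between PTU/LID and chow, where 7.69% of all 11586 genes did (edgeR's quasi-likelihood test, Benjamini-Hochberg adjusted p below 0.05). Slc25a47 and Slc25a48 rose, as did 4.07% of all genes, and Slc25a25, Slc25a30, Slc25a45 and Slc25a51 fell, as did 3.62%. In KO, 6 carriers also differed with the diet, against 7.44% of all genes: Slc25a10 and Slc25a48 rose (4.01% of all), and Slc25a21, Slc25a30, Slc25a45 and Slc25a46 fell (3.43%). Slc25a30, Slc25a45 and Slc25a48 were called in both genotypes, in the same direction in each. Between genotypes, Slc25a30 alone differed on chow (4.15% of all genes, 2.62% higher and 1.54% lower), higher in KO. On PTU/LID 7 carriers differed (6.13% of all genes), of which Slc25a10, Slc25a25, Slc25a33, Slc25a44, Slc25a45 and Slc25a51 were higher in KO (4.68% of all) and Slc25a21 lower (1.45%). Of all genes on PTU/LID, 542 were higher in KO and 168 lower, so higher calls (76.3%) outnumbered lower ones over all genes as well, though cyclic loess scaling put 50.9% higher. On chow 63.0% of the calls over all genes were higher in KO, and 51.8% with cyclic loess. In all 20 of these pairs of carrier and comparison, the libraries of the groups did not overlap. The pairs were picked by the test on these same libraries, so the separation adds no support to the calls. Its share over all genes was not counted.

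**Figure D2:**
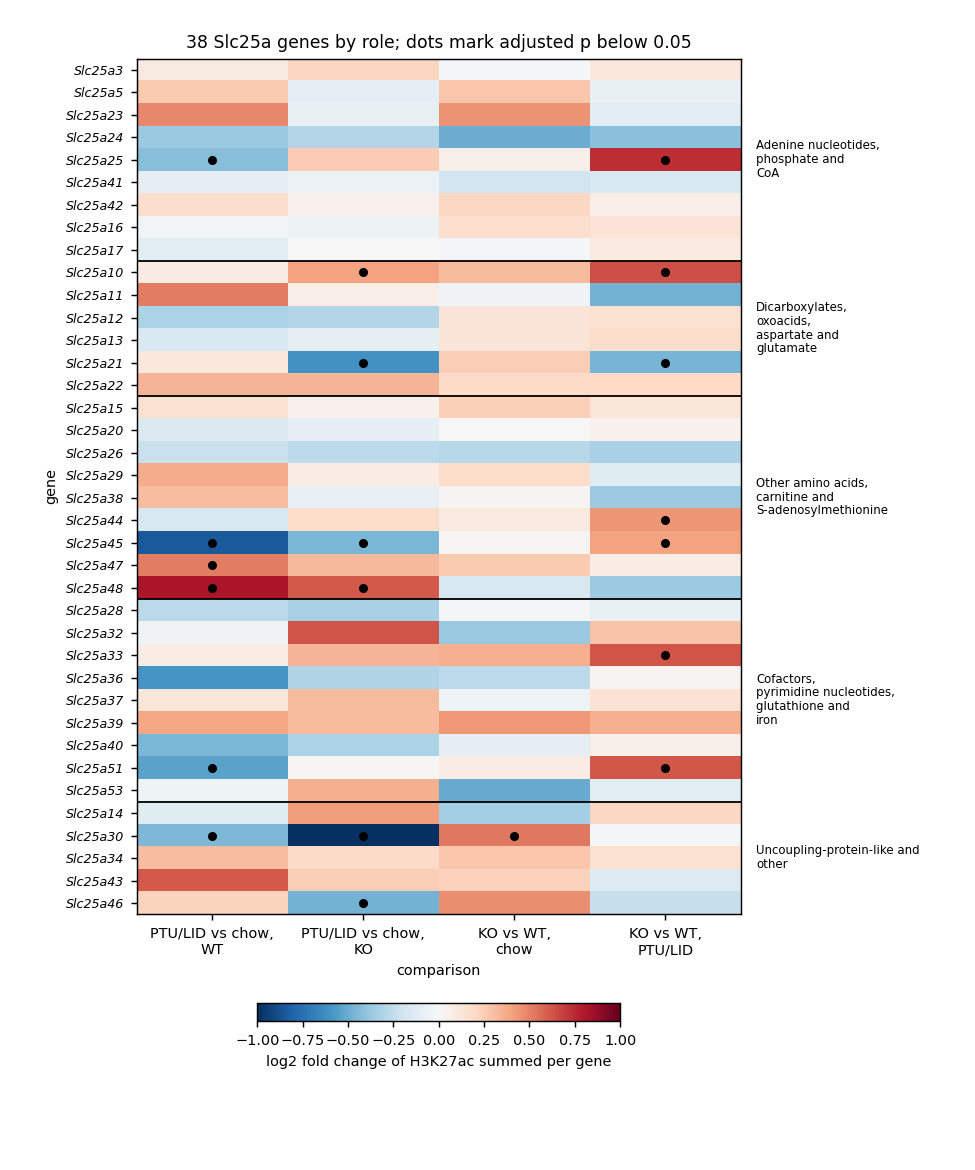
Log2 fold change of H3K27ac summed per gene (color) for 38 of the 39 carriers in rows, grouped by role, and 4 comparisons in columns; dots mark the 20 pairs with an adjusted p below 0.05. The darkest blue is Slc25a30 in KO on PTU/LID against chow, at -0.996, and the darkest red Slc25a48 in WT, at 0.82.

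Over the 39 carriers the median log2 fold change with the diet was -0.03 in WT and 0.04 in KO, where all genes had 0.00 and -0.02. For KO against WT it was 0.08 on chow and 0.08 on PTU/LID, against 0.00 and -0.04 over all genes. The diet difference had the same sign in WT and in KO for 27 of the 39 carriers (69.2%, against 65.0% of all genes), with a correlation of log2 fold changes across the carriers of 0.49 (all genes 0.47). The genotype difference had the same sign on the 2 diets for 22 of 39 (56.4%, against 62.2% of all genes), with a correlation of 0.21 (all genes 0.36). Genes are not independent replicates, and these shares describe the carriers without a test. The 2 diet comparisons, and likewise the 2 genotype comparisons, share no libraries with each other, while each diet comparison shares a group with each genotype comparison.

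Among carriers of amino acids, carnitine and related substrates, 9 of 10 had regions and 4 were called. Here and below, the number called in a role group pools the comparisons. The matching share of all genes was not counted, so these numbers do not show that a group stands out. In WT on PTU/LID 2 rose and 1 fell, in KO 1 rose and 1 fell, and 2 were higher in KO than WT on PTU/LID.
Slc25a48, a carrier linked to the import of choline, showed the steepest rise with the diet. Its 6 regions, all inside the gene at chr13:56437960-56472367, summed to 85.9, 88.6 and 79.6 CPM in the WT chow libraries, which are Chow_WT_27ac_96, Chow_WT_27ac_99 and Chow_WT_27ac_106, and to 136, 163 and 148 CPM in Ptulid_WT_27ac_135, Ptulid_WT_27ac_155 and Ptulid_WT_27ac_280. In KO the sums were 72.5, 68.8 and 85.5 CPM on chow (Chow_NCoRKO_27ac_122, Chow_NCoRKO_27ac_146 and Chow_NCoRKO_27ac_190) and 94.1, 129.8 and 121 CPM on PTU/LID (Ptulid_NCoRKO_27ac_211, Ptulid_NCoRKO_27ac_232 and Ptulid_NCoRKO_27ac_239); this order of libraries is kept throughout. Every PTU/LID library was above every chow library of its genotype. The log2 fold change was 0.82 in WT (SE 0.13, adjusted p = 0.000315) and 0.61 in KO (SE 0.13, adjusted p = 0.00301), and both calls held with any library left out; here and below the libraries left out are those of the groups compared. KO against WT on PTU/LID was -0.37 (SE 0.13, adjusted p = 0.089), which passed with a term for libraries of at least 2% chrM counts (-0.37, adjusted p = 0.0302) and with cyclic loess scaling (-0.45, adjusted p = 0.0149). Within the libraries of at least 2% the diet difference in KO was 0.32 (adjusted p = 0.253), with 1 KO PTU/LID library there.
Of its single regions 3 passed the test, all in the part of the gene nearest the start. The region over the start, chr13:56437779-56440004, averaged 44.0 ± 3.13 CPM in WT on chow and 94.0 ± 14.7 on PTU/LID (SD, n = 3, as for all ± values), a log2 fold change of 1.09 (SE 0.18, adjusted p = 0.000153). The next region, chr13:56440142-56440692, 2.06 kb into the gene, rose in WT (1.03, SE 0.30) and in KO (1.16, SE 0.34), and was lower in KO than in WT on chow (-1.30, SE 0.35) and on PTU/LID (-1.17, SE 0.29). There the means were 7.73 ± 1.78 and 15.4 ± 4.18 CPM in WT and 3.06 ± 1.84 and 6.96 ± 1.45 CPM in KO, a low signal of a few CPM.

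Slc25a45, related in sequence to the carnitine carrier, moved the other way. Its 6 regions (chr19:5877801-5885768) summed to 74.8, 72.2 and 76.6 CPM in WT on chow and 43.7, 43.0 and 38.6 on PTU/LID. In KO they summed to 72.1, 71.8 and 82.6 CPM on chow and 53.6, 54.6 and 57.1 on PTU/LID. All PTU/LID libraries were below all chow libraries, and on PTU/LID the KO libraries were above the WT ones. The diet difference was -0.84 in WT (SE 0.12, adjusted p = 0.000115), with any library left out at most 0.00161. In KO it was -0.45 (SE 0.12, adjusted p = 0.0148), and past the threshold no longer without Chow_NCoRKO_27ac_190 (-0.38, adjusted p = 0.0963) or Ptulid_NCoRKO_27ac_232 (-0.45, adjusted p = 0.0586). KO was higher than WT on PTU/LID by 0.40 (SE 0.12, adjusted p = 0.0475). This call was lost without Ptulid_WT_27ac_155 (0.43), Ptulid_WT_27ac_280 (0.36), Ptulid_NCoRKO_27ac_232 (0.41) or Ptulid_NCoRKO_27ac_239 (0.38), with adjusted p from 0.0935 to 0.175. Of the chow libraries, leaving out any KO one, Chow_WT_27ac_96 or Chow_WT_27ac_99 also lost the call. So did cyclic loess, region library sizes, fitting only the groups compared, and summing only regions near gene ends. The difference between the diet effects, the interaction, was 0.39 (SE 0.17, adjusted p = 0.423).
The region 1.2 kb into Slc25a45, chr19:5878605-5879440, passed the test in all 3 of these comparisons. It averaged 24.96 ± 3.84 CPM in WT on chow and 10.4 ± 2.04 on PTU/LID, against 30.3 ± 5.17 and 17.9 ± 2.94 in KO. Its log2 fold changes were -1.29 (SE 0.22, adjusted p = 0.00032) for the diet in WT, -0.75 (SE 0.20, adjusted p = 0.0145) in KO and 0.81 (SE 0.22, adjusted p = 0.0292) for KO against WT on PTU/LID.

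**Figure D3:**
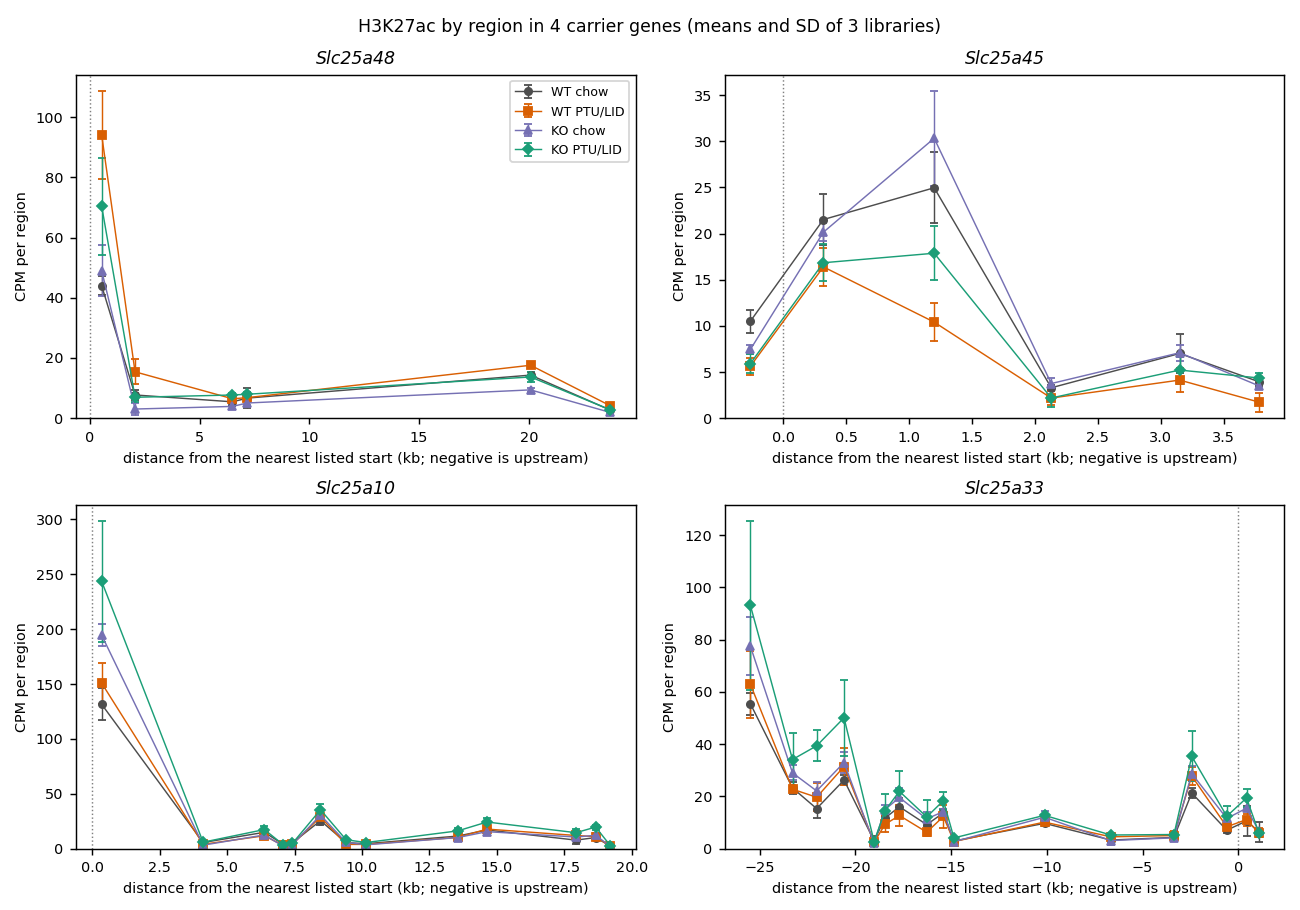
Mean CPM per region with SD (3 libraries) against the distance from the nearest listed start in kb, for Slc25a48, Slc25a45, Slc25a10 and Slc25a33, with 1 line per group. The region over the Slc25a48 start reaches 94.0 CPM in WT on PTU/LID, the Slc25a45 region at 1.2 kb falls to 10.4 CPM there, and Slc25a10 is highest over its start in KO on PTU/LID at 244 CPM.

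Slc25a47, a carrier found mainly in liver, read 90.2, 110.0 and 112 CPM in WT on chow and 132, 171 and 145 on PTU/LID over 7 regions (chr12:108849833-108856815). KO libraries read 128, 125 and 124 CPM on chow and 154, 154.6 and 164 on PTU/LID. PTU/LID libraries were above chow libraries in each genotype, and KO chow libraries were above WT chow libraries. The rise passed the test in WT at 0.52 (SE 0.12, adjusted p = 0.00854) and was 0.33 in KO (SE 0.11, adjusted p = 0.0844). The WT call was lost without Chow_WT_27ac_96 (0.43, adjusted p = 0.0578) or Ptulid_WT_27ac_155 (0.41, adjusted p = 0.0764). In WT its region inside the gene at chr12:108851075-108853068 rose by 0.59 on the log2 scale (SE 0.17, adjusted p = 0.0474), although the libraries of the groups overlapped there.
Slc25a44, the carrier of branched-chain amino acids, read 259, 297 and 248 CPM in WT and 345, 409 and 338 in KO on PTU/LID over 14 regions (chr3:88410494-88425141), with no overlap. On chow it read 296, 289 and 314 CPM in WT and 287, 335 and 342 in KO, which overlapped. The PTU/LID difference was 0.44 (SE 0.11, adjusted p = 0.0141), lost without Ptulid_WT_27ac_280 (0.40, adjusted p = 0.0767) or Ptulid_NCoRKO_27ac_232 (0.35, adjusted p = 0.113). The region over the end of lower coordinate, chr3:88410464-88411921, averaged 28.7 ± 4.99 CPM in WT and 44.5 ± 6.33 in KO on PTU/LID, without overlap (0.63, SE 0.18, adjusted p = 0.0315), and lies 0.75 kb from Pmf1.
The ornithine and carnitine carriers did not pass the test. Slc25a15 (chr8:22375550-22398621), which imports ornithine for the urea cycle, read 301, 312 and 355 CPM in WT on chow, 352.5, 363 and 365 on PTU/LID, 411, 352 and 381 in KO on chow and 335, 426 and 415 on PTU/LID. Its KO and WT chow libraries overlapped, at 0.24 (SE 0.11, adjusted p = 0.211). With a term for libraries of at least 2% chrM counts this value was 0.31 (adjusted p = 0.0189). Outside the gene, 2.74 kb upstream of the start, its region chr8:22400853-22401863 rose in KO on PTU/LID by 0.71 (SE 0.20, adjusted p = 0.0211).
Slc25a20 (chr9:108662136-108684642), which exchanges carnitine and acylcarnitines, read 58.7, 61.6 and 74.2 CPM in WT on chow and 56.9, 63.4 and 56.6 on PTU/LID. KO libraries read 64.7, 58.9 and 71.4 CPM on chow and 53.9, 60.6 and 67.5 on PTU/LID. All 4 groups overlapped, and its 4 log2 fold changes lay between -0.15 and 0.05.

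Among carriers of adenine nucleotides, phosphate and coenzyme A, 9 of 12 had regions, and Slc25a25 was the 1 called. Slc25a25, which exchanges ATP-Mg for phosphate under control of calcium, read 214, 217 and 266 CPM in WT on chow and 163, 179 and 177 on PTU/LID over 12 regions (chr2:32414487-32451470). In KO it read 237, 208 and 284 CPM on chow and 277, 270.0 and 320.3 on PTU/LID. The WT PTU/LID libraries were the 3 lowest of the 12, and the KO groups overlapped. The diet difference was -0.43 in WT (SE 0.12, adjusted p = 0.0317) and 0.25 in KO (SE 0.12, adjusted p = 0.232). The WT call was lost without Chow_WT_27ac_99 (-0.48, adjusted p = 0.0591), Chow_WT_27ac_106 (-0.33, adjusted p = 0.154), Ptulid_WT_27ac_155 (-0.45, adjusted p = 0.0786) or Ptulid_WT_27ac_280 (-0.46, adjusted p = 0.0807). KO exceeded WT on PTU/LID by 0.74 (SE 0.12, adjusted p = 0.000398), which held with any library left out, with adjusted p up to 0.00552. When only regions within 2.5 kb of a gene end were summed, this value was 0.19 (adjusted p = 0.79).
The opposite signs of the diet difference in WT and KO gave an interaction of 0.68 (SE 0.17, adjusted p = 0.0883), which did not pass. It passed with DESeq2 (0.70, adjusted p = 0.0252), cyclic loess (0.68, adjusted p = 0.0303), the chrM term (0.62, adjusted p = 0.0236) and without Ptulid_NCoRKO_27ac_211 (0.74, adjusted p = 0.0493). Of single regions, chr2:32420552-32424113 inside the gene averaged 67.0 ± 14.6 CPM in WT and 136 ± 20.5 in KO on PTU/LID (log2 fold change 1.01, SE 0.19, adjusted p = 0.000899). It covers 1 of the 3 listed starts of the gene, at 32424066, which is not an end of the annotated span. A region 5.39 kb outside the gene, chr2:32408616-32409578, was higher in KO on PTU/LID by 0.71 (SE 0.18, adjusted p = 0.016) and is 6.36 kb from Ptges2.
Slc25a5, an ADP/ATP exchanger of most tissues (chrX:36795597-36798808), read 60.0, 67.5 and 71.2 CPM in WT on chow, 68.5, 82.2 and 87.1 on PTU/LID, 83.8, 80.4 and 78.3 in KO on chow and 75.1, 76.6 and 74.9 on PTU/LID. Its KO chow libraries were above its WT chow libraries, at 0.28 (SE 0.12, adjusted p = 0.182), and with the chrM term 0.34 (adjusted p = 0.0498). Slc25a4, the exchanger of muscle and heart, had no region.
Slc25a3 (chr10:91116574-91124046), which imports phosphate for ATP synthesis, read 66.1, 59.5 and 58.1 CPM in WT on chow, 46.9, 68.7 and 77.6 on PTU/LID, 62.4, 60.2 and 58.1 in KO on chow and 70.5, 71.5 and 67.5 on PTU/LID. Its 4 differences lay between -0.02 and 0.21. Slc25a42 (chr8:70184340-70212281), which imports coenzyme A, read 116, 120.0 and 108 CPM in WT on chow, 124, 134.9 and 129.5 on PTU/LID, 125, 144.5 and 127 in KO on chow and 114, 141 and 151 on PTU/LID. The WT PTU/LID and KO chow libraries were all above the WT chow libraries, and its largest difference was 0.21 for KO on chow (SE 0.12, adjusted p = 0.332). Over the 9 carriers of these substrates, differences ranged from -0.43 to 0.48 with the diet in WT and from -0.50 to 0.45 for KO on chow.

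Among carriers of dicarboxylates, oxoacids, aspartate and glutamate, 6 of 7 had regions, and Slc25a10 and Slc25a21 were called in opposite directions in KO. Slc25a10, which swaps malate and succinate for phosphate, read 250.3, 264 and 254 CPM in WT on chow and 264, 271 and 274.5 on PTU/LID over 13 regions (chr11:120491837-120501161). In KO it read 324, 302 and 329.5 CPM on chow and 341, 462 and 459.9 on PTU/LID. Every KO library was above every WT library, and Ptulid_NCoRKO_27ac_211 was the lowest of KO on PTU/LID. KO exceeded WT on PTU/LID by 0.64 (SE 0.11, adjusted p = 0.000567), with any library left out at most 0.00737. On chow KO against WT was 0.32 (SE 0.11, adjusted p = 0.0956).
With the diet Slc25a10 rose in KO by 0.40 (SE 0.11, adjusted p = 0.021), while WT had 0.08 (SE 0.11, adjusted p = 0.729). The KO call was lost without Chow_NCoRKO_27ac_122 (0.42), Chow_NCoRKO_27ac_146 (0.39), Chow_NCoRKO_27ac_190 (0.43), Ptulid_NCoRKO_27ac_232 (0.33) or Ptulid_NCoRKO_27ac_239 (0.34), with adjusted p from 0.0569 to 0.136, and with the chrM term (0.29, adjusted p = 0.1). The interaction was 0.33 (SE 0.15, adjusted p = 0.467). Over the start, the region chr11:120489521-120494846, which holds the bases shown above, averaged 151 ± 18.6 CPM in WT and 244 ± 54.9 in KO on PTU/LID (0.69, SE 0.17, adjusted p = 0.01). Past the far end of the gene, chr11:120501047-120501450 was higher in KO by 1.08 (SE 0.31), at 7.998 ± 0.893 against 3.77 ± 0.653 CPM. So was chr11:120510173-120510832 by 0.85 (SE 0.22), at 19.6 ± 2.24 against 10.8 ± 1.64 CPM. The latter region also rose with the diet in KO (0.70, SE 0.21, adjusted p = 0.0372) and lies 18.7 kb from Gcgr.
Slc25a21, which carries oxodicarboxylates of lysine and tryptophan breakdown, read 103, 77.7 and 82.7 CPM in WT on chow and 94.96, 88.6 and 98.5 on PTU/LID over 3 regions (chr12:56712634-57197472). KO libraries read 116, 92.1 and 103 CPM on chow and 55.0, 72.8 and 75.4 on PTU/LID. The KO PTU/LID libraries were the 3 lowest of the 12. It fell with the diet in KO by 0.60 (SE 0.13, adjusted p = 0.00535), and without Chow_NCoRKO_27ac_122 was at -0.52 (adjusted p = 0.0534). KO against WT on PTU/LID was -0.46 (SE 0.14, adjusted p = 0.0425), a call lost without any 1 of the 6 libraries (-0.55 to -0.32, adjusted p from 0.0577 to 0.164). It was also lost with RLE scaling factors, without the chrM regions and with only the groups compared. The same held when only regions within 10 kb of a gene, or only those near gene ends, were summed. The WT diet difference was 0.10 (SE 0.14), and the interaction -0.71 (SE 0.19, adjusted p = 0.126) passed with the chrM term (-0.74, adjusted p = 0.0306). In KO the region over the start, chr12:57196450-57197968, which holds the bases shown above, went from 39.2 ± 4.96 to 24.1 ± 1.29 CPM (-0.71, SE 0.18, adjusted p = 0.012). A region deep inside the gene, 208 kb past another listed start at 57160643, fell by 0.59 (SE 0.19, adjusted p = 0.0463).
The carriers of the malate-aspartate shuttle did not pass. Slc25a13 (chr6:6041218-6217304) read 893, 850.4 and 925 CPM in WT on chow, 724, 881 and 799.8 on PTU/LID, 918, 971 and 1025 in KO on chow and 858, 959.9 and 907 on PTU/LID. Its groups overlapped except for KO on chow against WT on PTU/LID, and its 4 differences lay between -0.15 and 0.18 with SE 0.10. Slc25a11 (chr11:70644019-70647531), which exchanges oxoglutarate for malate, has 1 region and read 8.72, 19.4 and 18.3 CPM in WT on chow, 17.9, 22.8 and 26.4 on PTU/LID, 16.2, 17.0 and 13.5 in KO on chow and 12.5, 18.3 and 17.1 on PTU/LID. Slc25a12 (chr2:71274270-71367781), the aspartate-glutamate carrier of muscle and brain, also has 1 region and read 14.4, 10.3 and 11.3 CPM in WT on chow, 10.4, 8.64 and 9.75 on PTU/LID, 11.4, 12.5 and 14.9 in KO on chow and 11.7, 11.9 and 8.48 on PTU/LID. For both, the SEs of the log2 fold changes were 0.22 to 0.24, wider than for carriers with more regions.

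Of the carriers of cofactors, pyrimidine nucleotides, glutathione and iron, all 10 measured had regions and 2 were called, Slc25a33 and Slc25a51, both higher in KO on PTU/LID. Slc25a51, which imports NAD, read 112, 108 and 159 CPM in WT on chow and 73.9, 101 and 88.4 on PTU/LID over 9 regions (chr4:45395923-45408917). In KO it read 118, 137 and 148 CPM on chow and 128, 132 and 145 on PTU/LID. The WT PTU/LID libraries were the lowest 3, below all others. It fell with the diet in WT by 0.53 (SE 0.14, adjusted p = 0.0246), and KO on PTU/LID had 0.01 against KO on chow (SE 0.14). The WT call was lost without Chow_WT_27ac_106 (-0.34, adjusted p = 0.182), Ptulid_WT_27ac_135 (-0.43, adjusted p = 0.053) or Ptulid_WT_27ac_280 (-0.55, adjusted p = 0.0833). KO exceeded WT on PTU/LID by 0.62 (SE 0.14, adjusted p = 0.00906), and by 0.56 without Ptulid_NCoRKO_27ac_239 (adjusted p = 0.0591). The interaction was 0.54 (SE 0.20, adjusted p = 0.332).
The Slc25a51 region with the largest difference, chr4:45411325-45412160, lies 2.82 kb outside the gene. It averaged 16.3 ± 4.98 CPM in WT on chow and 6.54 ± 1.79 on PTU/LID, against 13.8 ± 2.58 and 13.6 ± 1.41 in KO. It fell with the diet in WT by 1.30 (SE 0.26, adjusted p = 0.00254) and was higher in KO on PTU/LID by 1.01 (SE 0.26, adjusted p = 0.0186).
Slc25a33, a pyrimidine nucleotide carrier, read 249, 254 and 248 CPM in WT on chow and 229.5, 289.6 and 268 on PTU/LID over 17 regions, of which 2 lie inside the gene (chr4:149744036-149774267). In KO it read 338, 336 and 290.4 CPM on chow and 297, 450.3 and 469.7 on PTU/LID. All KO libraries were above all WT libraries, and Ptulid_NCoRKO_27ac_211 was again the lowest of its group. KO exceeded WT on PTU/LID by 0.63 (SE 0.13, adjusted p = 0.00513), and by 0.51 without Ptulid_NCoRKO_27ac_239 (adjusted p = 0.0527). The regions that passed, chr4:149794218-149795496 and chr4:149795667-149796897, lie 20.6 and 22.0 kb upstream of the start and were given to Slc25a33 by distance alone. They were higher in KO on PTU/LID by 0.68 (SE 0.19) and 0.99 (SE 0.21) and rose with the diet in KO by 0.62 (SE 0.19) and 0.84 (SE 0.20). Libraries of the groups compared overlapped for the first of them and not for the second, which averaged 39.3 ± 5.92 CPM in KO on PTU/LID, against 19.6 ± 5.32 in WT on the same diet and 22.1 ± 3.44 in KO on chow.
Slc25a39, which imports glutathione, read 153, 149 and 197 CPM in WT on chow, 159, 238 and 256 on PTU/LID, 235, 213 and 227 in KO on chow and 228.5, 291 and 319 on PTU/LID. Its KO chow libraries were above its WT chow libraries, at 0.43 (SE 0.16, adjusted p = 0.125). Over the 10 carriers of these substrates, log2 fold changes with the diet ranged from -0.59 to 0.39 in WT and from -0.33 to 0.63 in KO, where 7 of the 10 were above 0.
The sum of Slc25a37, the iron importer mitoferrin 1, did not pass, while 1 weak region of it did in WT. That region, 0.8 kb outside the gene (chr14:69240869-69241228), rose from 2.98 ± 1.89 to 7.38 ± 1.33 CPM (1.38, SE 0.37, adjusted p = 0.0261).

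Among the uncoupling-protein-like and remaining carriers, 5 of 7 had regions, and Slc25a30 and Slc25a46 were called. Slc25a30, a relative of the uncoupling proteins, had the largest difference of any carrier and was called in 3 comparisons. Its 15 regions, 1 inside the gene at chr14:75757534-75787037 and 14 outside it, summed to 191, 200.1 and 186 CPM in WT on chow and 168.5, 144 and 111 on PTU/LID. In KO they summed to 261, 300.1 and 271.5 CPM on chow and 119.7, 153 and 143.5 on PTU/LID. The KO chow libraries were the 3 highest of the 12, and all PTU/LID libraries were below all chow libraries. The diet difference was -0.996 in KO (SE 0.13, adjusted p = 1.2e-05), with any library left out at most 0.000309. In WT it was -0.45 (SE 0.13, adjusted p = 0.0331), lost without Chow_WT_27ac_96 (-0.45), Chow_WT_27ac_99 (-0.42), Chow_WT_27ac_106 (-0.49), Ptulid_WT_27ac_155 (-0.47) or Ptulid_WT_27ac_280 (-0.32), with adjusted p from 0.067 to 0.202.
KO exceeded WT on chow by 0.53 (SE 0.13, adjusted p = 0.0193), a call lost without Chow_WT_27ac_96 (0.52), Chow_WT_27ac_99 (0.56), Chow_WT_27ac_106 (0.50), Chow_NCoRKO_27ac_146 (0.46) or Chow_NCoRKO_27ac_190 (0.54), with adjusted p from 0.0633 to 0.0986. On PTU/LID the genotypes differed by -0.02 (SE 0.13, adjusted p = 0.958). The interaction was -0.55 (SE 0.18, adjusted p = 0.26), so the larger fall in KO did not pass as a difference between genotypes. The values near the gene ends, from regions within 2.5 kb, were smaller, at -0.14 for the diet in WT (adjusted p = 0.71) and 0.31 for KO on chow (adjusted p = 0.316).
By region, 9 of the 15 fell with the diet in KO and 3 of these 9 also in WT, while 1 was higher in KO on chow. The fall was steepest at chr14:75792553-75793136 and chr14:75793503-75794905, 5.81 and 7.17 kb upstream of the start. The first averaged 10.7 ± 1.80 CPM in WT on chow and 3.92 ± 0.558 on PTU/LID, and 17.0 ± 2.74 and 5.49 ± 0.598 in KO. Its log2 fold change was -1.45 in WT (SE 0.29, adjusted p = 0.00176) and -1.64 in KO (SE 0.24, adjusted p = 1.09e-05). The second averaged 17.1 ± 2.81 and 9.21 ± 2.01 CPM in WT and 31.9 ± 1.41 and 10.7 ± 1.09 in KO, a fall of 0.90 (SE 0.23) and 1.58 (SE 0.21, adjusted p = 7.81e-07). It was also the region higher in KO on chow, by 0.89 (SE 0.20, adjusted p = 0.0108). A further region at 10.5 kb, chr14:75797067-75797938, fell by 1.21 in WT (SE 0.27) and 1.10 in KO (SE 0.23). The region next to the start, chr14:75787137-75787820, which overlaps the bases shown above, fell in KO from 21.1 ± 1.10 to 13.2 ± 1.31 CPM (-0.69, SE 0.20, adjusted p = 0.0282). These regions lie 32.8 to 42.9 kb from the next gene, Cog3, and were given to Slc25a30 by distance alone.

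Slc25a46, which acts in mitochondrial shape and lipid supply, has 2 regions and read 43.3, 49.6 and 39.9 CPM in WT on chow, 47.5, 56.3 and 49.8 on PTU/LID, 62.6, 57.7 and 61.7 in KO on chow and 37.0, 45.0 and 48.0 on PTU/LID. The KO chow libraries were the highest 3. It fell with the diet in KO by 0.48 (SE 0.13, adjusted p = 0.026), a call lost without Chow_NCoRKO_27ac_122 (-0.45), Chow_NCoRKO_27ac_146 (-0.49), Chow_NCoRKO_27ac_190 (-0.46), Ptulid_NCoRKO_27ac_211 (-0.37) or Ptulid_NCoRKO_27ac_232 (-0.50), with adjusted p from 0.0596 to 0.0998. The fall was in a region on chromosome 18, 11.6 kb outside the gene and 12.2 kb from Sap130 (-0.68, SE 0.19, adjusted p = 0.0198). Summed over regions within 10 kb the difference was -0.02 (adjusted p = 0.973), so the call rests on that distant region.

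**Figure D4:**
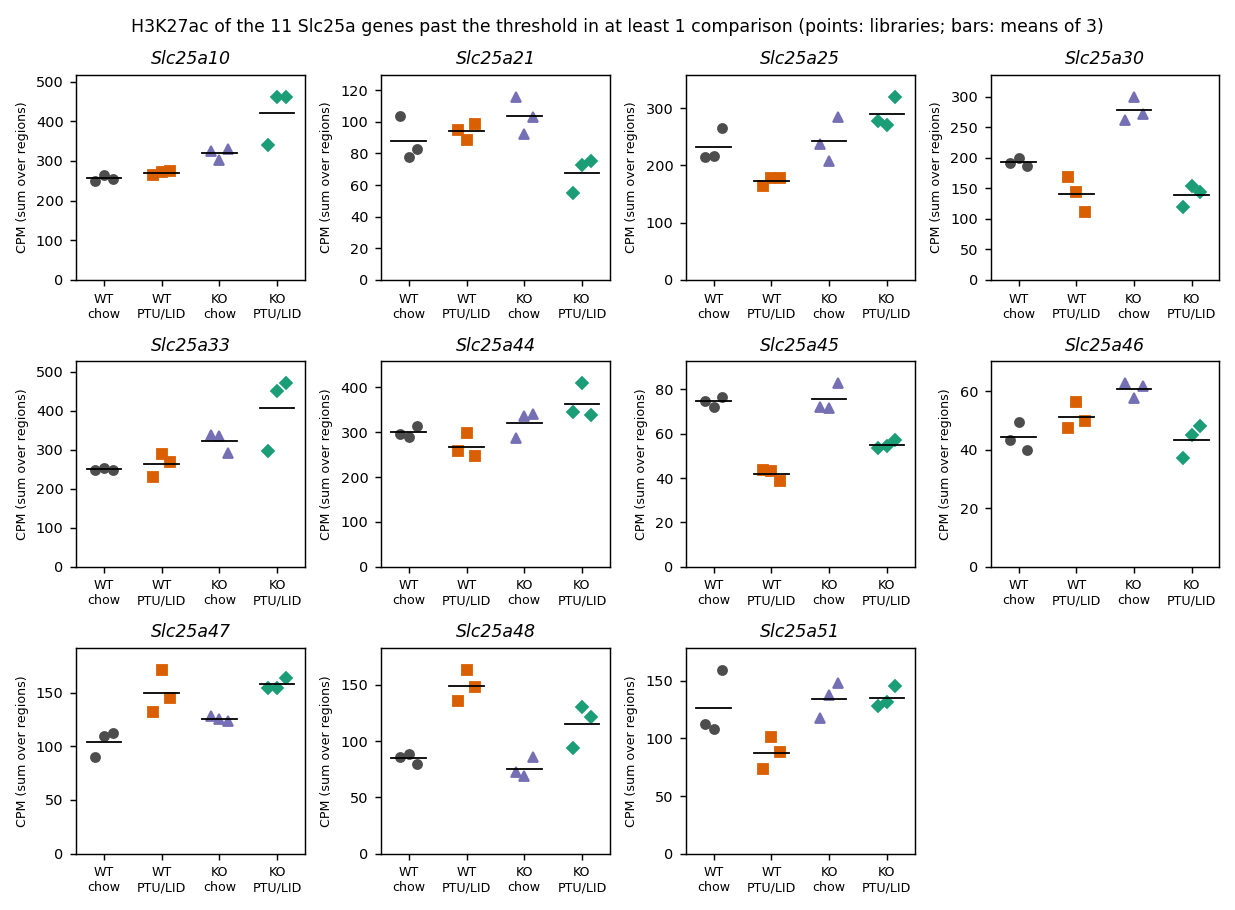
H3K27ac summed over regions (CPM, axis from 0) of the 11 called carriers in each library, with bars for the means of 3 libraries in each of 4 groups. Slc25a30 is highest in KO on chow (261 to 300.1 CPM), Slc25a48 in WT on PTU/LID (136 to 163), and Slc25a10 is higher in every KO library (302 to 462) than in every WT library (250.3 to 274.5).

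Over single regions, 11 of the 241 carrier regions differed with the diet in WT (3.7% of all 52606 regions tested did). Of these 4 were higher (1.81% of all) and 7 lower (1.9%). In KO 19 differed (6.21% of all), 6 higher (3.27%) and 13 lower (2.94%). Between genotypes on chow 2 differed (2.43% of all), 1 higher (1.6%) and 1 lower (0.823%). On PTU/LID 11 differed (3.86% of all), 10 higher in KO (3.17%) and 1 lower (0.698%). Of the 19 called in KO, 9 were those of Slc25a30. In all 30 distinct regions of 14 carriers were called, pooled over the comparisons. The matching shares of all regions and all genes were not counted, so these numbers do not show that the carriers stand out. For the interaction the main edgeR fit called no carrier (0.406% of all genes) and no region (0.23% of all regions). At an unadjusted p below 0.05 were 10 of 39 carriers and 31 of 241 regions (10.3% of all genes and 9.23% of all regions). DESeq2 called 1 carrier, Slc25a25, and no region. EdgeR called 1 carrier with cyclic loess, Slc25a25, and 3 with the chrM term, Slc25a25, Slc25a21 and Slc25a46.

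The KO and WT comparison on chow depended on how the libraries of high chrM share were handled. Fitted with a term for libraries of at least 2% chrM counts, 11 carriers were higher in KO on chow and none lower, and within the 5 chow libraries of that set 8 were, while the fit without the term called 1. The 11 were Slc25a30, Slc25a39 (a log2 fold change of 0.61, adjusted p = 0.000103), Slc25a34 (0.59, adjusted p = 0.00295), Slc25a33 (0.46, adjusted p = 0.0039), Slc25a23, Slc25a10, Slc25a46, Slc25a15, Slc25a22, Slc25a47 and Slc25a5. Over all genes the term raised the count from 481 to 1565, and 64.1% of those calls were higher in KO. Within the 5 chow libraries of that set, 67.6% of the calls over all genes were higher in KO. Higher calls thus outnumbered lower ones over all genes as well. Of the 6 chow libraries, only Chow_WT_27ac_106 lies below 2%, so that set and genotype cannot be fully told apart on chow, and the cause was not tested.

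Other genes of mitochondrial transport were taken from lists of related proteins. Of 4 measured carriers of the family under other symbols, Ucp2, an uncoupling protein, fell with the diet in WT by 0.66 (SE 0.14, adjusted p = 0.00604), and Mtch2, an outer membrane insertase, was higher in KO on chow by 0.50 (SE 0.13, adjusted p = 0.0316); Ucp1 had no region. Among 16 other transport proteins, Abcb10 and Sfxn5 rose with the diet in WT, Sfxn1 rose and Vdac3 fell in KO, and Mpc1, part of the pyruvate carrier, was higher in KO on chow.
Of 6 shuttle enzymes, Gpd2 passed in all 4 comparisons. Gpd2, the mitochondrial glycerol phosphate dehydrogenase and a classical thyroid hormone target, fell with the diet by 0.71 in WT (SE 0.13, adjusted p = 0.00132) and 0.57 in KO (SE 0.12, adjusted p = 0.0037). It was higher in KO by 0.69 on chow (SE 0.12, adjusted p = 0.00217) and 0.84 on PTU/LID (SE 0.13, adjusted p = 0.00022). Of the same enzymes, Mdh1 rose with the diet in KO by 0.43 and Got1 was higher in KO on PTU/LID by 0.55. Of 6 urea cycle genes, Arg1 was the 1 called, higher in KO on PTU/LID by 0.43 (SE 0.12, adjusted p = 0.0317). Of 4 carnitine shuttle genes, Crat rose with the diet in KO by 0.60 and was higher in KO on PTU/LID by 0.52, as was Cpt1b by 1.19 (SE 0.27, adjusted p = 0.0084), and Cpt2 was higher in KO on chow by 0.53.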

How the data were processed

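H3K27ac was measured in 12 liver libraries, 3 in each of 4 groups, and 4 input libraries on the list are not analysed here. The authors deposited read counts per region for each library. Per the submitters' processing notes, mm10 was the build, and the tools were MACS2 2.1.1, Bowtie2 2.2.1, bedtools 2.26.0, Picard 2.8.1 and bcl2fastq 2.17.1.14, with no roles given; how the regions were merged across libraries is not given in the sources used here. Regions are 200 to 9857 bases long with a median of 468, and the lowest count is 1.

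From these counts, regions were given to genes by the RefSeq table of gene spans, in which exons and introns were not told apart; a region inside several genes counted for each, and any other region for the nearest gene end within 50 kb. Counts were summed per gene and tested over all genes with edgeR 4.0.16 in R 4.3.3 (TMM factors, filterByExpr with a minimum count of 10, robust quasi-likelihood fit with 1 mean per group over all 12 libraries, Benjamini-Hochberg adjustment, threshold 0.05). Single regions were tested in the same way. The SE is the log2 fold change divided by the root of the F statistic. CPM of gene sums and of single regions have separate scales. The fitting code was tested on simulated data, in which 100 genes changed 1.5-fold and 100 changed 2-fold in WT on PTU/LID. It called 38% of the former and 75% of the latter, so differences of these sizes can be missed. Of its 123 calls, 10 were genes left unchanged. Alternatives were DESeq2 1.42.0, other scalings (limma 3.58.1 for cyclic loess), filters, distances, library subsets and a term for libraries with at least 2% of counts in 4 regions of chrM; the comparisons within the sets above and below that share were chosen after seeing the data.

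The members and lists were chosen with earlier results of these data known. Values per library are given for carriers past the threshold and for Slc25a3, Slc25a5, Slc25a10, Slc25a11, Slc25a12, Slc25a13, Slc25a15, Slc25a20, Slc25a25, Slc25a42 and Slc25a47, picked by role; those of Slc25a39 and several single regions, among them those near Slc25a15 and Slc25a37, were chosen after their values were seen. A pseudogene, Slc25a5-ps, was left out, and Slc25a52 is not in the gene table used here. Results of 1 carrier and 1 related gene are not reported here singly, though both stay in the fits and counts.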

Additional observations from a re-analysis of the deposited data

How the results depend on the processing

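No paired analysis was possible because no 2 groups share a library number. Unless said otherwise, a library left out is 1 of the groups compared. The set of libraries with at least 2% chrM counts holds 1 WT and 1 KO library on PTU/LID, whose spread is taken from the chow groups, so its counts for the diet and on PTU/LID rest on single libraries. Carriers called in WT with the diet were 6, against 3 when only regions near gene ends were summed, 2 within the higher chrM set, and 3 to 10 with 1 library left out. In KO 6 were called, 3 to 6 with 1 left out, and 7 without Ptulid_WT_27ac_135 or Ptulid_WT_27ac_155, which are of the other groups. For KO against WT on chow 1 was called, against 2 with DESeq2, 6 with only the groups compared, 11 with the chrM term, 0 near gene ends, 8 within the higher set, and 0 to 1 with 1 left out; 4 were called without Ptulid_WT_27ac_135 or Ptulid_NCoRKO_27ac_211, of the other groups. On PTU/LID 7 were called, against 4 with only the groups compared, 3 near gene ends, 3 within the higher set (1 library against 1), and 3 to 7 with 1 left out. The interaction had 0, against 1 with DESeq2, 1 with cyclic loess, 3 with the chrM term, and 0 to 1 with 1 left out.
Of single regions, 11 were called in WT with the diet, 2 within the higher set, and 5 to 17 with 1 library left out, and in KO 19, with 9 to 18. For KO against WT on chow 2 were called, against 9 with only the groups compared, 18 with the chrM term, 13 within the higher set, and 0 to 3 with 1 left out. On PTU/LID 11 were called, against 6, 26 and 2 in the same settings, 22 within the lower set, and 4 to 17 with 1 left out. The interaction had 0 regions (121 over all), against 1 with cyclic loess (260) and 3 with the chrM term (537). Over all regions, KO against WT on chow had 1276, 2523 with only the groups compared, 4005 with the term and 2340 within the higher set. The comparison on PTU/LID had 2032, 1304 with only the groups compared, 3377 with the term and 4002 within the lower set. With 1 library left out, the diet had 669 to 3612 in WT (1949 in the main fit) and 1795 to 3602 in KO (3266). KO against WT then had 448 to 797 on chow and 928 to 2597 on PTU/LID. Slc25a46 with the diet in KO changed sign near gene ends, to 0.0050, since its distant region is then left out. Of the other values of single carriers followed under alternatives, 437 kept direction and side of the threshold, 80 lost the call and 3 gained it. Apart from those that test fewer regions or libraries, the cause was not tested. This tally follows at most 28 values per setting, not all 195 pairs of carrier and comparison. Most of the 11 calls with the chrM term on chow are therefore not among the 3 gained. Over all genes, calls in the 5 comparisons were 402, 388, 220, 362 and 20 near gene ends, and 1565 on chow, 1132 on PTU/LID and 225 for the interaction with the chrM term. With only the groups compared they were 1264 on chow and 363 on PTU/LID, and for the interaction DESeq2 called 109, cyclic loess 93 and region library sizes 31. Within the higher set they were 1185 on chow and, with single PTU/LID libraries, 242 in WT with the diet and 256 on PTU/LID, and within the lower set 1322 on PTU/LID. With 1 library left out, calls over all genes were 320 to 1610 for the diet in WT (891 in the main fit). In KO they were 461 to 1147 (862). For KO against WT they were 130 to 256 on chow (481) and 327 to 1046 on PTU/LID (710). The interaction had 4 to 94 (47). The numbers of called carriers with 1 library left out are to be read beside these. With 3 libraries a group and 8 carriers on 1 region, depth limits what can be detected at the weakest genes.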
